A study of Mus musculus with 10 samples.

Results

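Genes of the kinesin, cytoplasmic dynein and dynactin machines, which move cargo along microtubules, were followed in the striatum of the R6/2 mouse model of Huntington's disease and of control mice. The members were all protein-coding genes with a mouse symbol of the form Kif or Klc plus a digit, or beginning with Dync, Dynl or Dctn, and a mean level of at least 1 FPKM over the 10 libraries. By definition FPKM is the number of fragments per kilobase of transcript, scaled to the mapped fragments of the library, so it is already a level per length. Whether the deposited values were scaled between libraries in a further way is not stated. Of 65 genes that fit by symbol, 43 reached a mean of 1 FPKM, out of 15905 genes of the whole table that did. The rule reads the symbol and the mean level and no difference between the groups, but this set of genes was picked for study with earlier results of these data known. One of the 43, Kif1bp, fits the symbol rule but encodes a protein that binds kinesins and is no motor.

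The series holds 5 libraries from isogenic wild-type mice (Control 1 to 5) and 5 from mice hemizygous for the R6/2 transgene (R6/2 1 to 5), all harvested at 11 weeks of age. R6/2 mice carry a transgene with the start of human huntingtin and a long CAG repeat, driven by the human promoter, beside their own pair of mouse huntingtin genes. Whole striatum was used, so every value is a mixture over neurons, glia and vessels. Nothing in the labels ties a library to an animal of its own, and the tests therefore speak of the spread between libraries.

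Kinesins carry cargo mostly towards the growing ends of microtubules, which in axons means away from the cell body. Most kinesin motors are encoded by Kif genes, and the Klc genes encode light chains that bind cargo to the conventional kinesin, kinesin-1. Cytoplasmic dynein walks the other way. It is built on a heavy chain with the motor, to which intermediate, light intermediate and light chains are attached, and it needs the large dynactin complex for long runs. Striatal projection neurons depend on this traffic for their long axons, and huntingtin itself is a scaffold that binds to dynein, dynactin and, through adaptors, kinesin-1.

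Values in the whole table set the frame for these genes. Mouse Htt was at 16.2 ± 0.697 FPKM in control libraries and 16.5 ± 1.300 in R6/2 (mean ± SD, n = 5, limma adjusted p = 0.825), while Gm12695, the gene at the site where the transgene is integrated, was at 0.699 to 2.34 FPKM in R6/2 libraries, 0.0688 in Control 1 and 0 in Control 2 to 5. The tissue carried the markers of striatal spiny projection neurons, and all 18 of these fell, with a summed level of 2774 to 3545 FPKM in controls and 572 to 822 in R6/2. Fewer cells of a type and less RNA per cell cannot be told apart in such tissue. Myelin markers were lower (9 of 12 called, summed level 1624 to 1839 against 768 to 1165 FPKM), and markers of cortical projection neurons were higher (2 of 6 called, summed level of the 8 listed 24.2 to 55.4 against 58.2 to 109 FPKM). Of the cortical list, Emx1 and Neurod1 were under 1 FPKM. Markers of astrocytes (5 of 10) and striatal interneurons (5 of 7) were also called lower. The part of these shifts in the motor gene results was not tested, apart from a model that holds the cortical signal as a covariate.

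Motor genes spanned a wide range of levels in control and R6/2 striatum alike. At the top were the kinesin-3 genes Kif1b (mean 319 FPKM over the 10 libraries) and Kif1a (151), which move synaptic vesicle precursors, the dynein light chain gene Dynlrb1 (293), the kinesin-1 heavy chain genes Kif5a (144) and Kif5c (113), and Kif2a (129.8), which shortens microtubules instead of walking on them. In all, 6 members had a mean of at least 100 FPKM, 20 lay between 10 and 100, and 17 lay below 10 FPKM. The 22 genes left out by the level rule included 17 Kif genes, many of them known for roles in cell division, and 2 of the 22 were listed at 0 in every library. Kif20a (0.564 FPKM), Kif6 (0.545) and Kif11 (0.497) lay just outside, and Kif24 (1.27), Dynlrb2 (1.29) and Kif9 (1.45) just inside. Also outside were the 4 near-identical Dynlt1 copies on chromosome 17, at means of 0.217 to 0.483 FPKM, whose reads the counting could split or discard, so their levels are uncertain.

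**Figure D1:**
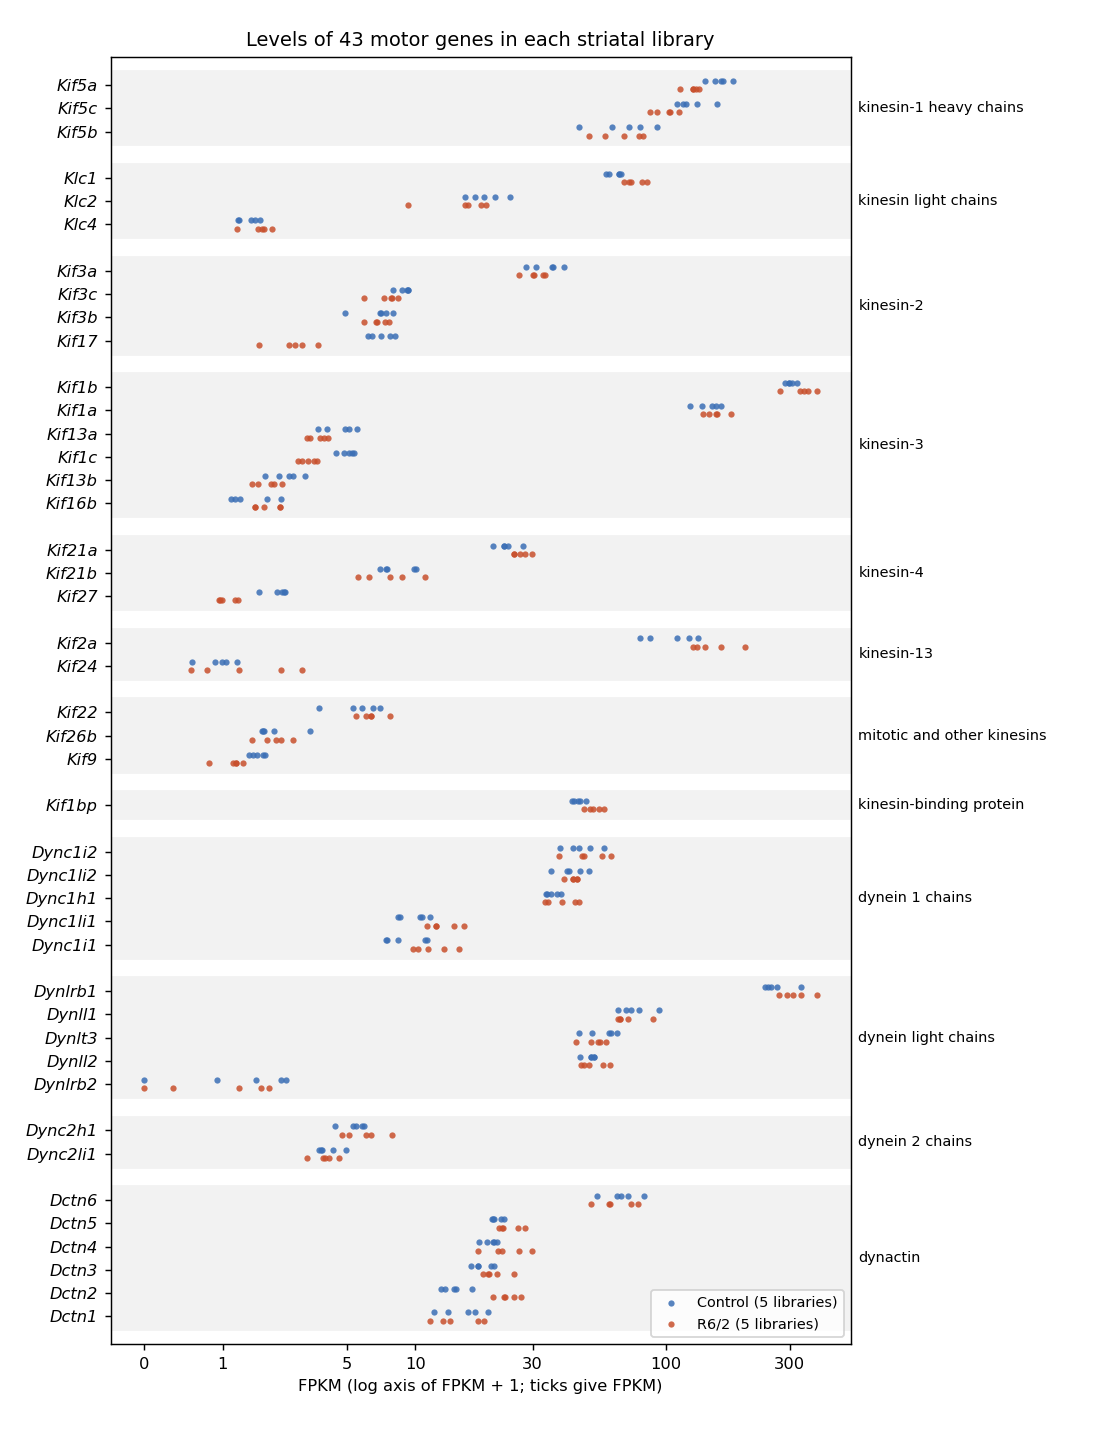
FPKM of each of the 43 genes (rows, grouped by motor class) in the 5 control (blue) and 5 R6/2 (red) libraries, 1 point per library, on a log axis of FPKM + 1. Most genes have overlapping groups, and the 7 exceptions are Kif5a, Kif17, Kif1c, Kif27 and Kif9, lower in R6/2, and Klc1 and Dctn2, higher.

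No difference was called for 38 of the 43 motor genes. In all, 4 kinesin genes fell, Kif17, Kif27, Kif1c and Kif5a, and 1 dynactin gene, Dctn2, rose. Over all genes tested with limma on log2(FPKM + 1), 5.00% were called higher and 9.11% lower at an adjusted p under 0.05, 14.1% in either direction. Among the 43 members 1 (2.33%) was higher and 4 (9.3%) lower, 11.6% in either direction. This was near the share of all genes for the FPKM as deposited. All members are protein-coding, and of the 11692 protein-coding genes tested 6.06% were higher and 10.6% lower, 16.7% together. The difference between these shares was not tested. The median log2 change was 0.018 over the members and 0.001 over all genes tested. Groups did not overlap in 2 members with all R6/2 libraries higher and 5 with all lower, against 4.50% and 8.58% of all genes (13.1% together). That is 16.3% of the members, beside 15.7% of the protein-coding genes.

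Of 21 kinesin motor genes 13 had a change below 0, 4 fell and 0 rose, with a median of -0.10. Of 18 dynein and dynactin genes 12 had a change above 0, 1 rose and 0 fell, with a median of 0.10. Over all genes tested 49.8% had a change below 0, 5.00% were called higher and 9.11% lower. Counts at an unadjusted p under 0.05 were 2 higher and 8 lower among the kinesins, and 3 higher and 0 lower among dynein and dynactin genes. Over all 15905 genes they were 1909 higher and 2458 lower. With quantile normalization 11 of the 21 kinesins lay below 0 (median -0.066) and with rescaling 10 (median 0.002), while 15 and 17 of the 18 dynein and dynactin genes lay above 0 (medians 0.185 and 0.210). The median of all genes tested rose too, from 0.001 to 0.048 and 0.080. Rescaling raised R6/2 relative to control values for protein-coding genes as a whole. The share of all genes above 0 was not counted under these scalings. The difference between the kinesin and the dynein and dynactin genes was not tested. For 30 of the 38 genes without a call, the 95% interval of the change lay within 1.5-fold in either direction on the log2(FPKM + 1) scale, so a larger change than that lies outside their interval. For the other 8 it did not, and Dynlrb2 had the widest (95% interval -1.23 to 0.73).

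The split between higher and lower calls depended on how libraries were scaled. With quantile normalization 7 members (16.3%) were higher and 3 (6.98%) lower, beside 6.99% and 8.03% of all genes. With protein-coding genes rescaled to a common total per library 6 (14.0%) were higher and 3 (6.98%) lower, beside 9.32% and 7.49% of all genes. That total did not overlap between the groups, at 211209 to 219426 FPKM in controls and 193203 to 202906 in R6/2. Its part and that of the genotype cannot be told apart. With FPKM as deposited the members' counts were 1 and 4. These scalings moved the median of all genes to 0.048 and 0.080 and that of the members to 0.117 and 0.131. The rescaling changed protein-coding genes only, and these include all 43 members. Its values over all genes (0.080, 9.32% and 7.49%) thus mix rescaled genes with genes left as deposited, and are no like measure for the members. Kif17, Kif27 and Kif1c were the 3 lower genes under both scalings, and Dctn2, Klc1, Kif2a, Dync1li1 and Kif1bp were higher under both. With cortical signal as a covariate 0 were higher and 1, Kif17, was lower (2.33%), but calls fell over the whole table too, to 0.440% higher and 2.49% lower. That signal did not overlap between the groups (-1.03 to -0.042 in controls and 0.073 to 0.987 in R6/2, as mean log2 level relative to the mean of all libraries), so its part and that of the genotype cannot be told apart. Summed over the 43 members, the level was 1877 to 2041 FPKM in control and 1899 to 2208 in R6/2 libraries, with overlap.

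**Figure D2:**
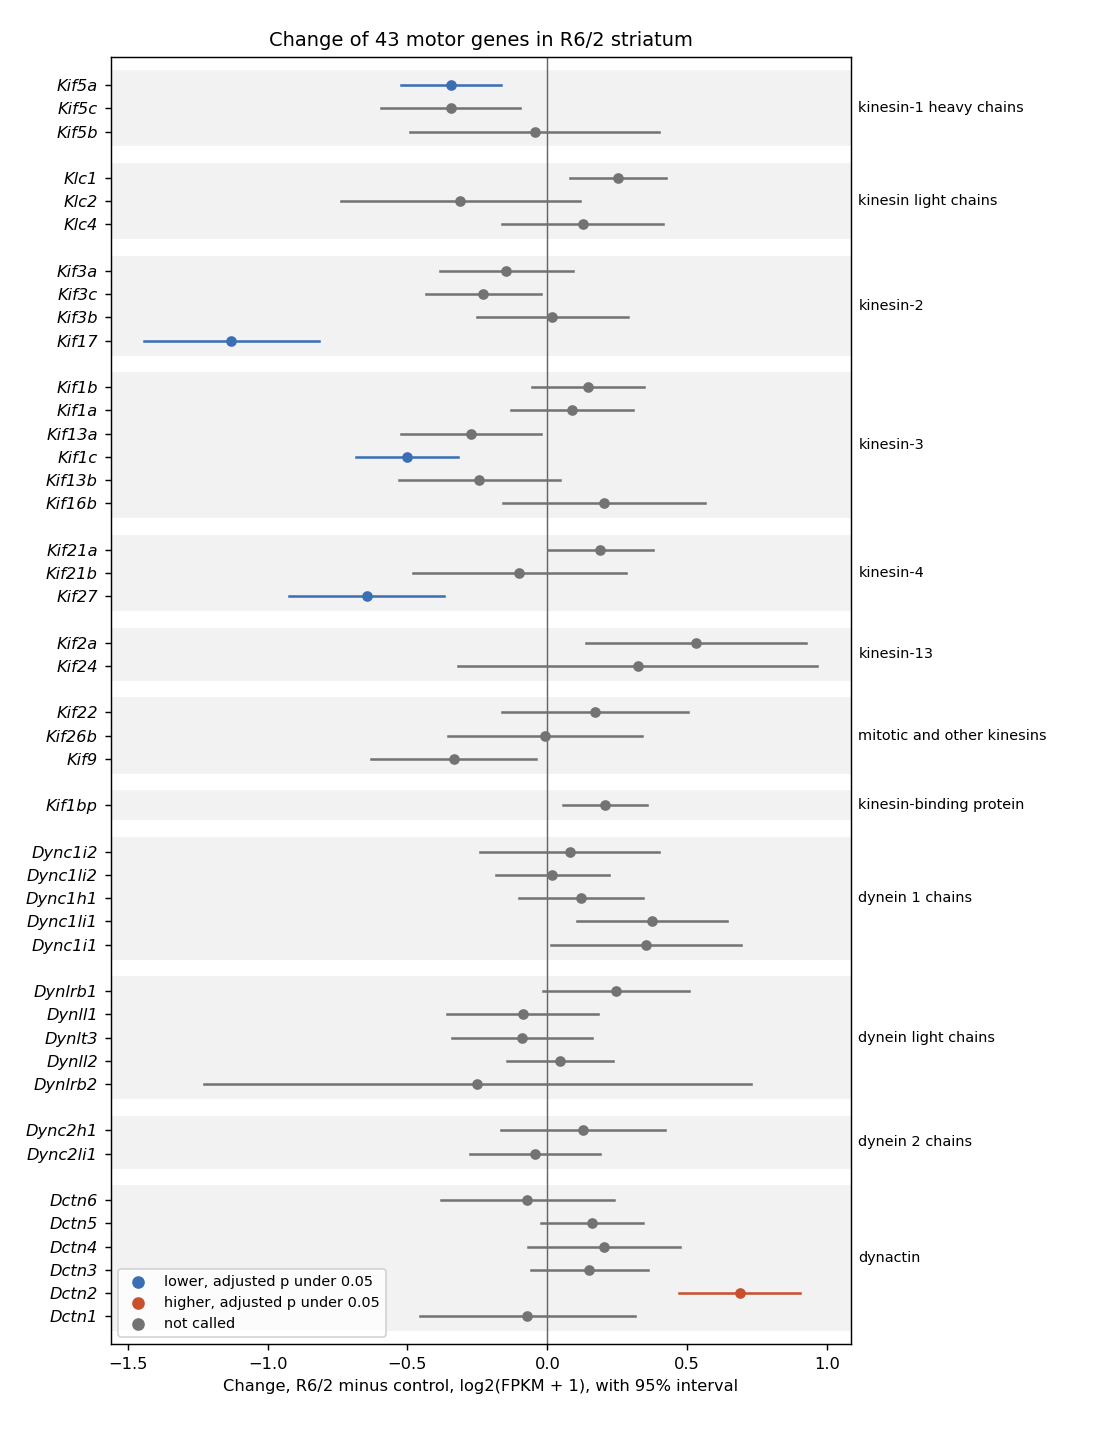
Change of each of the 43 genes, R6/2 minus control, on the log2(FPKM + 1) scale (points) with its 95% interval (lines), grouped by motor class. Blue marks the 4 genes called lower, red the 1 called higher and grey the 38 without a call, most of whose intervals include 0.

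Kinesin-1 is the conventional motor for mitochondria, vesicles and other axonal cargo, made of 2 heavy chains and 2 light chains. Of its heavy chain genes Kif5a and Kif5c are expressed mainly in neurons and Kif5b in most cell types. Kif5a (GRCm38 chromosome 10, 127225696 to 127263348, minus strand) was at 166, 181, 141, 162 and 155 FPKM in Control 1 to 5 and at 128, 128, 130.1, 113 and 134 in R6/2 1 to 5. Every R6/2 library lay below every control. It fell from a mean of 161 ± 14.6 FPKM to 127 ± 8.01 (± SD over 5 libraries each), a log2 change of -0.34 with a standard error of 0.08 (adjusted p = 0.0185, limma), losing 21.5% of the mean. The call was lost after quantile normalization (-0.24, limma adjusted p = 0.0732), in the rescaled values (-0.23, 0.0877) and once cortical signal entered the model (-0.47, 0.07001), and over all alternatives its adjusted p ran from 0.0128 to 0.0877. Kif5c had a change of the same size that was not called. It was at 119.6, 131, 116, 110.4 and 158 FPKM in the controls and 92.1, 102, 112, 86.5 and 104 in R6/2 libraries (log2 change -0.35, 95% interval -0.59 to -0.10, limma adjusted p = 0.0687). Only R6/2 3 reached into the control range. Kif5c passed with array weights (limma adjusted p = 0.0498), in a range up to 0.242. Kif5b, the broadly expressed chain, overlapped widely at 61.7, 79.3, 92.2, 45.8 and 71.6 FPKM in controls and 57.6, 81.5, 78.4, 68.3 and 50.1 in R6/2 (log2 change -0.05, 95% interval -0.49 to 0.40).

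Summed over the 3 heavy chains, kinesin-1 was at 319 to 392 FPKM in control and 268 to 321 in R6/2 libraries, with an overlap of 1 library. The sum of Kif5a and Kif5c alone was at 258 to 313 FPKM in controls and 199.6 to 242 in R6/2, and the groups did not overlap. The differences in the makeup of the pool were smaller than its spread or close to it. Kif5a gave 45.2 ± 4.68% of the heavy chain FPKM in controls and 43.3 ± 2.87% in R6/2, Kif5c 35.4 ± 3.21% and 33.9 ± 1.54%, and Kif5b 19.5 ± 4.41% and 22.9 ± 3.702% (SD, n = 5). The sums were formed after the single genes had been seen, and no test was made of them.

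The light chains, which carry the cargo-binding repeats of kinesin-1, had no call. Klc1, the main light chain gene of neurons, was at 65.8, 65.3, 59.9, 67.1 and 58.5 FPKM in Control 1 to 5 and 71.4, 73.2, 84.5, 80.7 and 68.8 in R6/2 1 to 5. All R6/2 libraries lay above the controls, but the change of 0.25 (SE 0.08) had a limma adjusted p of 0.0568, just over the threshold. It passed without R6/2 5 (0.0472), after quantile normalization (0.0131), after rescaling (0.0127) and with a minimum of 5 FPKM (0.0416), within a range of 0.0127 to 0.559. Klc2 was at 17.6, 24.4, 21.2, 16.1 and 19.2 FPKM in controls and 19.5, 16.5, 18.6, 9.299 and 16.1 in R6/2, where R6/2 4 was the lowest of all 10 (log2 change -0.31, 95% interval -0.74 to 0.12, limma adjusted p = 0.336). Klc4 averaged 1.65 FPKM and was not called, and it was named after its value was seen.

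Kinesin-2 motors work in cilia and neurons. Kif3a pairs with Kif3b or Kif3c, whereas Kif17 forms a motor of its own that is known for carrying NMDA receptor vesicles into dendrites. Kif17 (GRCm38 chromosome 4, 138250435 to 138301967, plus strand) had the largest fall of the 43 genes. It was at 7.77, 6.23, 8.21, 7.09 and 6.52 FPKM in Control 1 to 5 and 2.802, 1.76, 3.65, 3.04 and 2.61 in R6/2 1 to 5. The highest R6/2 library was well below the lowest control. Kif17 fell from a mean of 7.16 ± 0.828 FPKM to 2.77 ± 0.688 (± SD over 5 libraries each), a log2 change of -1.13 with a standard error of 0.14 (adjusted p = 0.000611, limma), losing 61.3% of the mean. It was called lower in all of the settings tried that kept it, with limma adjusted p from 0.000413 to 0.0493. One annotated transcript of Kif17 begins inside Sh2d5, the neighbouring gene on the same strand, with which it shares 74 exon bases (1.61% of its exon length). Sh2d5 itself fell from a mean of 15.98 ± 4.21 FPKM to 5.13 ± 0.373 (± SD over 5 libraries each), a log2 change of -1.42 with a standard error of 0.19 (adjusted p = 0.000885, limma). It was at 19.1, 17.6, 17.9, 16.7 and 8.61 FPKM in controls and 5.15, 4.84, 5.77, 4.92 and 4.99 in R6/2 libraries, and its part in the result of Kif17 was not tested. Sh2d5 was examined because of this overlap and is outside the rule for named genes.

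The start region of Kif17 is shown because the gene changed most and holds a complete cyclic AMP response element, the palindrome TGACGTCA bound by CREB-type factors. The window runs from 250 bases before to 50 bases after the RefSeq start (GRCm38.p6, chr4:138262001-138262300, plus strand, written 5′ to 3′ along the gene), which lies downstream of the first GENCODE start, with that element and a GC box (GGGCGG or its complement CCGCCC) in capitals.
Kif17: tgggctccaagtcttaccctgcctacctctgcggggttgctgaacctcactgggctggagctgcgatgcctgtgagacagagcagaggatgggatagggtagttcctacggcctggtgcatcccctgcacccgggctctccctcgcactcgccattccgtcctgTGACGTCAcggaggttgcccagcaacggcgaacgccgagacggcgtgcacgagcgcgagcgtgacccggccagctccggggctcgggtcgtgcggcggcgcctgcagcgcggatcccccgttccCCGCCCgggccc

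The other kinesin-2 genes had no call. Kif3a was at 39.95, 35.9, 31.04, 36.03 and 28.1 FPKM in controls and 33.5, 32.96, 30.05, 30.3 and 26.6 in R6/2 (log2 change -0.15, 95% interval -0.38 to 0.09). Its partner Kif3b, at 6.91 ± 1.197 and 6.95 ± 0.655 FPKM (SD, n = 5), had a change of 0.02 (95% interval -0.25 to 0.29). Kif3c, the partner more specific to neurons, was at 9.34, 8.73, 9.21, 9.32 and 8.05 FPKM in controls and 8.43, 7.93, 7.85, 7.33 and 5.99 in R6/2 (log2 change -0.23, 95% interval -0.43 to -0.023, limma adjusted p = 0.137). Only R6/2 1 exceeded the lowest control. Of the exon bases of Kif3c, 35.3% overlap an antisense gene, and whether the counting used strand is not stated. The same limit holds for other members. In all, 12 members share exon bases with a gene on the opposite strand, among them Dctn6 (11.8%), Klc2 (10.6%) and Kif1bp (10.1%).

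Of 6 kinesin-3 genes 1 fell and 0 rose. The abundant pair of axonal vesicle motors had no call: Kif1b was at 298, 306, 297, 289 and 321 FPKM in controls and 341, 383, 353, 275 and 328 in R6/2 (log2 change 0.15, 95% interval -0.054 to 0.34). Kif1a was at 123, 156, 138, 151 and 163 FPKM and 179, 156, 139, 158 and 146 (log2 change 0.09, 95% interval -0.13 to 0.30). Kif1b passed with quantile normalization (0.32, limma adjusted p = 0.0186). Both had overlapping groups, with the single lowest value of Kif1b in R6/2 4 and the single highest of Kif1a in R6/2 1. Kif1b makes 2 main protein forms with different cargo, and the gene-level values do not separate them.

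Kif1c encodes a motor found in many cell types that carries dense core vesicles and integrins. Kif1c (GRCm38 chromosome 11, 70700548 to 70731964, plus strand) was at 4.85, 5.29, 5.41, 5.12 and 4.47 FPKM in Control 1 to 5 and 3.05, 3.24, 3.63, 3.48 and 2.898 in R6/2 1 to 5. The groups were well apart. Kif1c fell from a mean of 5.03 ± 0.375 FPKM to 3.26 ± 0.302 (± SD over 5 libraries each), a log2 change of -0.50 with a standard error of 0.08 (adjusted p = 0.00303, limma), losing 35.2% of the mean. With cortical signal as a covariate Kif1c changed by -0.53, and it was not called (limma adjusted p = 0.0774, the highest in a range from 0.00144). Its start region is shown for contrast with that of Kif17. It holds 6 GC boxes (capitals) and no cyclic AMP response element, and 41 CG pairs in 300 bases (GRCm38.p6, chr11:70700298-70700597, plus strand).
Kif1c: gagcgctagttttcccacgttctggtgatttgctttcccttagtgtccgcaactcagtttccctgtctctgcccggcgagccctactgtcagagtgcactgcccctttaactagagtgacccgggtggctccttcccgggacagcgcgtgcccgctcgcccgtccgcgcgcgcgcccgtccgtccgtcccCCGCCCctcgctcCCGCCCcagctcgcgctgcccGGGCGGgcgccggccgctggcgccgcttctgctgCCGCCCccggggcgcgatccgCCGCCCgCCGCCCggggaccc

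Kif13a, which moves recycling endosomes, was at 4.04, 5.55, 5.12, 4.93 and 3.66 FPKM in controls and 3.74, 3.33, 3.23, 4.08 and 3.91 in R6/2 (log2 change -0.27, 95% interval -0.52 to -0.022, limma adjusted p = 0.146). Kif13b (mean 2.26 FPKM, log2 change -0.24) and the endosome motor gene Kif16b (mean 1.79 FPKM, log2 change 0.20) were low and had no call. These 3 genes were singled out after their values had been seen.

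In the kinesin-4 class, Kif21a and Kif21b slow microtubule growth in neurons, and Kif27 belongs to the ciliary branch. Kif21a was at 23.1, 20.8, 23.1, 23.9 and 27.4 FPKM in controls and 25.2, 28.1, 29.9, 25.3 and 26.7 in R6/2 (log2 change 0.19, 95% interval 0.00064 to 0.38, limma adjusted p = 0.181). It passed after rescaling (limma adjusted p = 0.0256). Kif21b was at 8.41 ± 1.43 and 7.897 ± 2.11 FPKM (SD, n = 5, 95% interval -0.48 to 0.28). Kif27 (GRCm38 chromosome 13, 58287502 to 58359122, minus strand) was at 1.76, 2.38, 2.49, 2.24 and 2.43 FPKM in Control 1 to 5 and 1.23, 1.29, 0.935, 0.996 and 0.953 in R6/2 1 to 5. It was low in all libraries and lower in each R6/2 library than in any control. Kif27 fell from a mean of 2.26 ± 0.294 FPKM to 1.08 ± 0.167 (± SD over 5 libraries each), a log2 change of -0.65 with a standard error of 0.12 (adjusted p = 0.00733, limma). With cortical signal as a covariate Kif27 was not called (-0.70, limma adjusted p = 0.119, the highest in a range from 0.00189). Of its exon bases, 6.37% overlap an antisense gene.

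Other genes of motile and sensory cilia were low and mixed. Kif9, a kinesin of motile cilia, was at 1.86, 1.72, 1.92, 1.63 and 1.53 FPKM in controls and 1.26, 1.397, 1.19, 0.778 and 1.26 in R6/2, without overlap and without a call (log2 change -0.33, 95% interval -0.63 to -0.039, limma adjusted p = 0.131). Kif9 passed with no trend in the model (limma adjusted p = 0.0492), in a range up to 0.536. Dynlrb2, the roadblock light chain of ciliated cells, was at 0, 0.897, 2.36, 2.51 and 1.69 FPKM in controls and 0.2899, 0, 2.003, 1.32 and 1.81 in R6/2. Dynlrb2 was thus listed at 0 in 1 library of each group and at more than 1.5 FPKM in several others. Dync2h1, the heavy chain of the dynein that returns cargo within cilia, was at 5.43 ± 0.629 and 6.08 ± 1.26 FPKM (SD, n = 5, 95% interval -0.16 to 0.42), and its light intermediate chain gene Dync2li1 at 4.11 ± 0.546 and 3.95 ± 0.499 (95% interval -0.28 to 0.19). Beside these, 0 of 6 tested markers of ciliated ependymal cells were called, and the summed level of the 13 listed was 12.1 to 19.8 FPKM in controls and 12.4 to 22.3 in R6/2. Of the 13, 7 were under 1 FPKM, among them the defining factor gene Foxj1. Markers of the choroid plexus, whose cells are also ciliated, varied widely within both groups (0 of 5 called, summed level 15.2 to 553 FPKM in controls and 30.03 to 468 in R6/2). The part of these cells in the values above was not tested, and the 4 motor genes of this paragraph were singled out after their values were seen.

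Kif2a, a kinesin-13 that removes subunits from microtubule ends and limits the branching of axons, had a larger fitted change than any other kinesin with a change above 0, but it was not called. It was at 110.0, 86.8, 133, 79.02 and 123 FPKM in controls and 127, 142, 203, 132 and 164 in R6/2 libraries. R6/2 3 was far above the rest, and the lowest R6/2 libraries lay within the control range. The log2 change was 0.53 (95% interval 0.14 to 0.92, limma adjusted p = 0.0763). It passed in 3 of the 20 other settings, among them quantile normalization (0.0266) and rescaling (0.0267), and its adjusted p ran from 0.0266 to 0.358. Its exons share 1229 bases (19.2%) with those of Dimt1 on the other strand, which averaged 1.56 ± 0.178 FPKM over the controls and 2.15 ± 0.357 over R6/2 (± SD, n = 5), far below Kif2a. Kif1bp, whose product holds kinesins off microtubules, was at 48.7, 43.8, 42.96, 45.99 and 45.3 FPKM in controls and 50.6, 52.1, 57.3, 47.9 and 54.6 in R6/2 (log2 change 0.21, 95% interval 0.055 to 0.36, limma adjusted p = 0.0746). Kif1bp passed with quantile normalization (0.01002) and rescaling (0.00874). The low kinesins Kif24 (a centriole protein), Kif22 (a chromosome-binding kinesin) and Kif26b (which has lost the usual motor activity) had log2 changes of 0.32, 0.17 and -0.0082, none called. Markers of dividing cells were low beside them (7 of 10 under 1 FPKM, 0 of 3 tested called, summed level 8.55 to 12.4 FPKM in controls and 5.62 to 7.59 in R6/2). Of the genes in this paragraph, all but Kif2a were singled out after their values were seen.

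Cytoplasmic dynein had no call in any of its subunit genes. None of the 5 genes of its heavy, intermediate and light intermediate chains passed, although all 5 changes were above 0, with a median of 0.12. Dync1h1, the motor subunit (GRCm38 chromosome 12, 110601452 to 110666945), was at 34.1, 35.5, 37.4, 38.7 and 33.9 FPKM in Control 1 to 5 and 44.2, 39.1, 34.4, 45.6 and 33.5 in R6/2 1 to 5. R6/2 1 and 4 stood above the controls, and the other 3 R6/2 libraries lay in or close to the control range (log2 change 0.12, 95% interval -0.10 to 0.34, limma adjusted p = 0.500). The intermediate and the light intermediate chains come as pairs of genes. In each pair the less abundant one had the larger fitted change, a difference that was not tested. The intermediate chain gene of neurons, Dync1i1, was at 7.59, 7.45, 8.45, 10.9 and 11.2 FPKM in controls and 9.795, 15.1, 13.2, 11.3 and 10.2 in R6/2 (log2 change 0.35, 95% interval 0.015 to 0.69, limma adjusted p = 0.163). Its widely expressed counterpart Dync1i2 was at 50.3, 45.6, 43.5, 38.5 and 57.5 FPKM and 47.03, 60.9, 38.2, 56.2 and 47.7 (log2 change 0.08, 95% interval -0.24 to 0.40). Both pairs of groups overlapped.

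The light intermediate chains link dynein to cargo adaptors. Dync1li1 was at 11.6, 10.7, 8.46, 8.62 and 10.5 FPKM in controls and 11.2, 12.2, 15.98, 12.2 and 14.5 in R6/2, where 4 of 5 libraries were above all controls (log2 change 0.37, 95% interval 0.11 to 0.64, limma adjusted p = 0.0681). It passed after quantile normalization (0.0468) and rescaling (0.0184), in a range of 0.0184 to 0.581. Dync1li2 was at 49.9, 46.1, 41.2, 41.9 and 35.7 FPKM and 43.3, 44.9, 44.8, 39.8 and 43.4 (log2 change 0.018, 95% interval -0.19 to 0.22). The R6/2 values of Dync1li2 lay inside the control range. Summed, these 5 genes were at 139 to 153 FPKM in controls and 147 to 172 in R6/2, with overlap.

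The light chains sit at the base of the dynein tail, and some also serve other protein complexes. Dynlrb1, of the roadblock family, was at 253, 240.0, 248, 267 and 333 FPKM in controls and 333, 310.0, 383, 292 and 274 in R6/2 libraries. Control 5 matched the higher R6/2 libraries (log2 change 0.25, 95% interval -0.015 to 0.51, limma adjusted p = 0.2101). Dynlrb1 passed with quantile normalization (limma adjusted p = 0.0168). Dynll1 and Dynll2 encode LC8, a hub protein shared with myosin V and many other partners. They were at 76.03 ± 11.2 and 50.6 ± 2.49 FPKM in control striatum and 71.4 ± 10.1 and 52.4 ± 5.997 in R6/2 (SD, n = 5, 95% interval -0.36 to 0.18 and -0.15 to 0.24). Dynlt3, of the Tctex family, was at 60.9, 51.3, 45.6, 64.3 and 59.7 FPKM in controls and 44.4, 55.1, 58.5, 54.3 and 51.2 in R6/2 (log2 change -0.09, 95% interval -0.34 to 0.16). The signs of Dynll1 and Dynlt3 turned after quantile normalization and rescaling.

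A change was called in 1 of the 6 Dctn genes of dynactin (16.7%), beside 14.1% of all genes. Dctn2 encodes dynamitin (the p50 subunit), which forms the shoulder that joins the dynein-binding arm to the actin-like filament of the complex. Dctn2 (GRCm38 chromosome 10, 127266368 to 127281950, plus strand) was at 13.3, 14.5, 12.8, 17.2 and 14.8 FPKM in Control 1 to 5 and 20.9, 23.2, 23.2, 25.3 and 26.96 in R6/2 1 to 5. Every R6/2 library lay above every control. It rose from a mean of 14.5 ± 1.71 FPKM to 23.9 ± 2.31 (± SD over 5 libraries each), a log2 change of 0.69 with a standard error of 0.10 (adjusted p = 0.00128, limma), gaining 64.97% on the mean. With cortical signal as a covariate Dctn2 changed by 0.58, and it was not called (limma adjusted p = 0.0869, the highest in a range from 0.000746). Dctn1 encodes p150Glued, the arm that binds dynein and microtubules. It was at 13.7, 17.7, 11.96, 16.6 and 19.9 FPKM in controls and 19.2, 13.97, 13.04, 18.2 and 11.5 in R6/2 (log2 change -0.07, 95% interval -0.46 to 0.31, limma adjusted p = 0.834). The ratio of Dctn2 to Dctn1 FPKM ranged over 0.745 to 1.07 in control libraries and 1.09 to 2.35 in R6/2, without overlap, and was chosen after both had been seen.

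The start region of Dctn2 (GRCm38.p6, chr10:127266012-127266311, plus strand) held none of the 5 motifs searched and 11 CG pairs, and it lies just before the GENCODE start. It is shown because Dctn2 was the member called higher.
Dctn2: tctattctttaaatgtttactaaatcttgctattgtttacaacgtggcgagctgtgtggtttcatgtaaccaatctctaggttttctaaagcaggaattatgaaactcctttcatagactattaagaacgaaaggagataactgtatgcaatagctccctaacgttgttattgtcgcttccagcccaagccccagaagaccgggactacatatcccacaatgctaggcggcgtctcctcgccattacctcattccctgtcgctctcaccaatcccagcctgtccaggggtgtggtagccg

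Dctn2 and Kif5a are neighbours on chromosome 10. Kif5a runs on the minus strand and Dctn2 on the plus strand, away from each other, with 3019 bases between the 2 genes. They were called in opposite directions. The next closest pair of members, Dctn3 and Kif24, is 249910 bases apart, and neither was called.

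The remaining Dctn subunits were not called. Dctn3 was at 20.4, 17.04, 21.1, 18.1 and 18.2 FPKM in controls and 21.7, 19.1, 25.2, 20.03 and 19.9 in R6/2 (log2 change 0.15, 95% interval -0.059 to 0.36). Dctn3 encodes the small p24 subunit of the shoulder. Dctn4, Dctn5 and Dctn6 belong to the pointed end of the filament, where many adaptors dock. They were at 20.3 ± 1.29, 21.7 ± 1.101 and 67.7 ± 10.2 FPKM in control striatum and 23.8 ± 4.46, 24.4 ± 2.61 and 64.5 ± 10.8 in R6/2 (SD, n = 5). Their log2 changes were 0.20 (95% interval -0.071 to 0.48), 0.16 (95% interval -0.023 to 0.34) and -0.07 (95% interval -0.38 to 0.24).

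**Figure D3:**
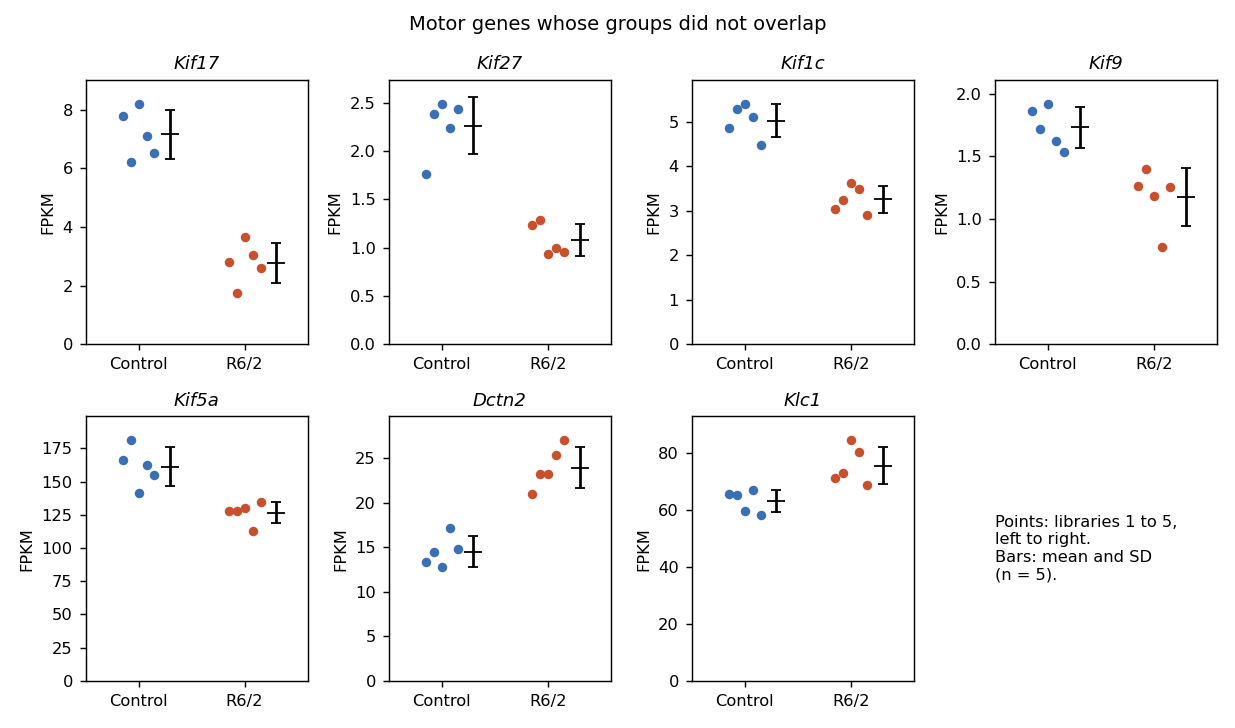
FPKM in each library for the 7 motor genes whose control (blue) and R6/2 (red) groups did not overlap, with the mean and SD of each group (black, n = 5) and every axis starting at 0. Kif17 stands furthest apart, and Kif9 and Klc1 are separated by small gaps and were not called.

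RefSeq start windows were found for 32 of the 43 genes, 39 windows in all. They were rich in G and C (median 61.0%, against 52.7% over all 32851 windows) and in CG pairs (median 22 against 7). Each was searched on both strands for the cyclic AMP response element TGACGTCA, the E-box CACGTG, the GC box GGGCGG, the EGR site GCGTGGGCG and the NRF1 site (by its palindromic core), of which the GC box and the EGR site can overlap. The cyclic AMP response element was in 4 member windows (10.3%) and in 1.79% of all windows. The GC box was in 26 (66.7%) against 35.7%, the E-box in 2 (5.13%) against 7.15%, the NRF1 site in 1 (2.56%) against 0.971% and the EGR site in 0 against 0.612%. These are shares of letters in windows of unequal base composition, not of bound sites. The 4 windows with the cyclic AMP response element are given as 40 bases around it (capitals), since they join genes of unlike change: Kif17 called lower, and Kif5c, Klc1 and Dctn3 without a call. The element begins 86, 26, 33 and 81 bases before the start of these genes in turn.
Kif17: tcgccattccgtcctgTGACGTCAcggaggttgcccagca
Kif5c: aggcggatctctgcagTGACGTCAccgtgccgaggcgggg
Klc1: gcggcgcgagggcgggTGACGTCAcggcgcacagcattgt
Dctn3: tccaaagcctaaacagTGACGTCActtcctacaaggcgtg

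Partners of the motors were examined by lists, to be read beside the 5.00% higher and 9.11% lower (14.1%) of all genes. Of 6 further dynactin subunits 0 were called, with Actr10 nearest to a call (17.4 ± 1.26 FPKM in controls and 22.3 ± 3.03 in R6/2, mean ± SD over 5, log2 change 0.34, limma adjusted p = 0.05096) and Capza2 next (-0.26, 0.136). Unadjusted, 2 of the 6 had a p under 0.05 in limma, 1 in each direction. With quantile normalization and with rescaling 2 were called higher, where 6.99% and 9.32% of all genes were. Of 3 tested kinesin genes outside the symbol rule 0 were called and 0 had an unadjusted p under 0.05. Kifap3, the adaptor of the Kif3 motor, was at 46.04 ± 2.03 and 47.02 ± 6.497 FPKM. Kifc3 and Kifc2, motors of the class that walks the other way, had log2 changes of 0.18 and 0.092 (limma adjusted p = 0.459 and 0.585).

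Of 15 tested adaptors and regulators of dynein, 1 fell and 0 rose (6.67%). With quantile normalization and with rescaling 2 rose, where 6.99% and 9.32% of all genes did. Nin, which encodes ninein, a microtubule anchor and dynein activator, was at 11.3, 8.69, 10.8, 9.25 and 11.4 FPKM in controls and 5.37, 5.64, 5.300, 5.47 and 5.66 in R6/2. The R6/2 values lay within a narrow band below all controls. Nin fell from a mean of 10.3 ± 1.24 FPKM to 5.49 ± 0.161 (± SD over 5 libraries each), a log2 change of -0.79 with a standard error of 0.09 (adjusted p = 0.000296, limma). Bicd1, a cargo adaptor of dynein, changed by 0.37 on the log2 scale (adjusted p = 0.0599, limma), and Pafah1b1, which encodes the dynein regulator LIS1, one of 0.19 (0.2002). Of 22 tested cargo adaptors of kinesin and scaffolds linked to huntingtin, 2 rose and 2 fell (18.2%, beside 14.1% of all genes). Fez2 rose from 7.53 ± 0.9903 to 11.03 ± 0.879 FPKM (log2 change 0.50, limma adjusted p = 0.00693) and Ppfia2, a liprin that anchors Kif1a cargo, by a log2 change of 0.34 (0.0279). Mapk8ip1, which encodes the kinesin-1 adaptor JIP1, fell from 15.3 ± 0.927 to 11.4 ± 0.959 FPKM (log2 change -0.40, limma adjusted p = 0.00801). Rhot2, which encodes a Miro protein that links mitochondria to motors, fell from 33.2 ± 4.298 to 23.5 ± 1.81 FPKM (log2 change -0.47, limma adjusted p = 0.0121). Hap1, the huntingtin-associated protein that binds dynactin and kinesin-1, was at 7.15 ± 1.76 and 6.82 ± 1.93 FPKM (log2 change -0.063, limma adjusted p = 0.885). Ppfia2, Rhot2, Hap1, Kifap3 and Pafah1b1 were singled out after their values were seen.

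Genes of the tracks were called in both directions, to be read beside the 5.00% higher and 9.11% lower (14.1%) of all genes. Of 30 microtubule-associated protein genes 5 rose and 6 fell (36.7%), with a median of 0.001. Under quantile normalization and rescaling 9 rose while 4 and 3 fell, beside 6.99% and 9.32% of all genes higher and 8.03% and 7.49% lower. Of 13 tubulin genes 3 rose and 1 fell (30.8%), with a median of 0.036. Stmn2, a neuronal protein that binds free tubulin, rose from 111 ± 22.6 to 239.9 ± 20.8 FPKM (log2 change 1.13, limma adjusted p = 0.000626), and the end-binding protein gene Mapre3 rose from 51.3 ± 6.53 to 76.8 ± 5.905 FPKM (log2 change 0.58, limma adjusted p = 0.00376). Tuba4a fell from 62.99 ± 5.28 to 41.5 ± 4.07 FPKM (log2 change -0.59, limma adjusted p = 0.00184) and Tubb4b rose from 17.3 ± 1.97 to 27.7 ± 4.28 FPKM (log2 change 0.64, limma adjusted p = 0.00512). Actin-based motors had 0 of 13 called higher and 4 lower (30.8%), with a median of -0.32, among them Myo5b (log2 change -1.11, limma adjusted p = 0.00358). Some tubulin genes are near-identical in their coding parts, so their single levels are uncertain. No difference between these lists and the motor genes was tested.

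**Figure D4:**
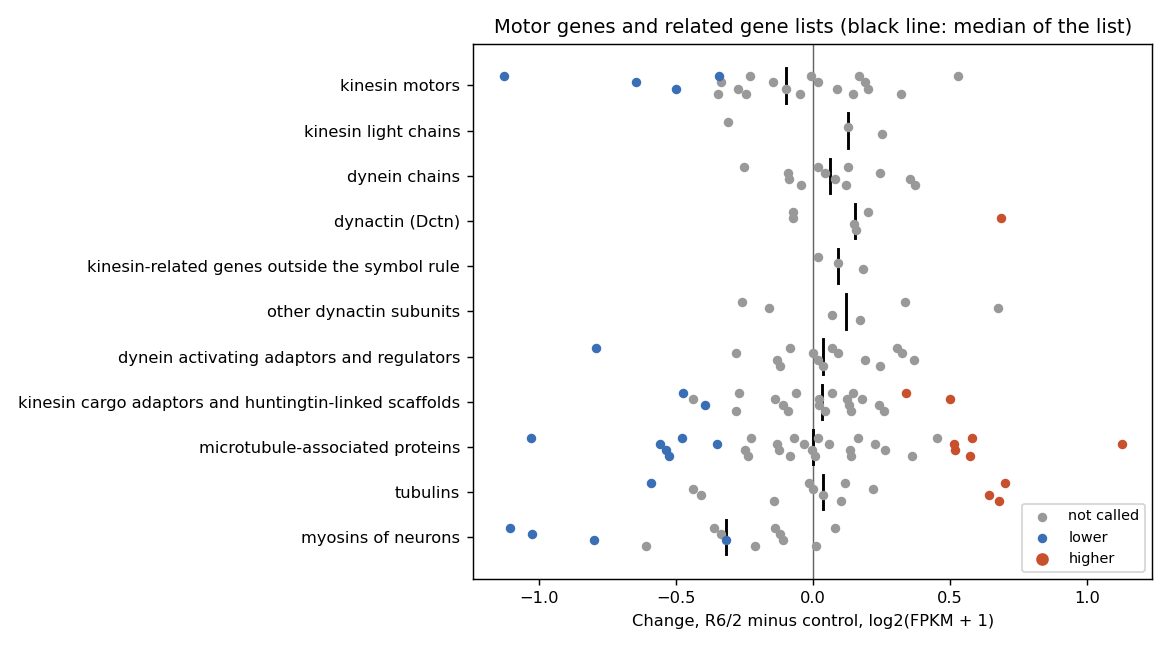
Change of each tested gene, R6/2 minus control, on the log2(FPKM + 1) scale, for the motor genes by type and for the lists of partner genes (rows), with the median of each row as a black line. Red and blue points are genes called higher and lower; the dynein chains, the kinesin light chains, the further dynactin subunits and the kinesin genes outside the symbol rule have no such point.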

How the data were processed

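RNA of whole striatum from 5 control and 5 R6/2 libraries was amplified with the Ovation RNA-Seq kit and made into Nextera libraries, per the labels' protocols. The deposited unit is FPKM per gene for 47632 rows. STAR 2.4.0, Cufflinks, Cuffdiff and GRCm38 are named, per the submitters' processing notes; what each tool did, how libraries were scaled to each other, the annotation release and the strand setting are not stated there. FPKM keep no read counts, so library depth is unknown and counting error cannot be given. Every value column had a sample (0 without one). In no pair of libraries did more than 6.14% of tested genes have identical values.

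Symbols and positions came from GENCODE M21 (GRCm38) by Ensembl identifier (47220 of 47632 rows) and start windows from RefSeq (GRCm38.p6). From the FPKM, log2(FPKM + 1) was computed for the 15905 genes whose mean reached 1 FPKM and fitted with limma 3.58.1 (R 4.3.3; a mean-variance trend, no covariate), R6/2 minus control. P-values were adjusted by Benjamini-Hochberg over these genes, and an adjusted p under 0.05 was called. Fold changes on this scale understate the change of genes with low values. Nothing says that the libraries came from separate animals, so the p-values reflect only how much these samples vary, which may be technical. The script was also tested on simulated data, as a check of the code only. Figures were drawn with matplotlib 3.10.9.

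The members, gene lists and tests were chosen with earlier results of these data known. Named members were the called ones, up to 10 in each direction (only 5 were called in all), and 29 core subunit genes whatever their result; each list of partners was to give its 2 genes with the smallest p, of which 1 is not reported here. Alternatives were other pseudocounts, filters and scalings, no trend, array weights, the replicate block, the cortical marker signal as a covariate, and leaving out each library.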

Additional observations from a re-analysis of the deposited data

Results flagged for a closer look

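Of 86 groups of 5 libraries examined (43 genes in each of 2 conditions), 3 held a library set apart from the other 4 by more than 0.71 of the group's range, where chance gives about 1 group in 20. Dynll1, an LC8 light chain gene, was at 89.1 FPKM in R6/2 3 and at 64.9 to 70.9 in the other R6/2 libraries. Dynll2, the other LC8 gene, was at 46.3 FPKM in Control 3 and at 50.8 to 52.3 in the other controls. Kif26b was at 3.33 FPKM in Control 4 and at 1.84 to 2.15 in the other controls. None of the 3 genes was called.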

How the results depend on the processing

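Against 1 motor gene called higher and 4 called lower, the counts were 2 and 1 with a minimum mean of 5 FPKM. There 3 of the 4 lower genes drop out of the test. At this filter the counts were 6.45% and 3.23% of 31 members, beside 7.18% higher and 12.6% lower of 9015 genes. With quantile normalization 7 were called higher, with protein-coding genes rescaled 6, and in both 3 were lower. With the cortical marker signal in the model 0 were higher and 1 lower, beside 70 and 396 of all 15905 genes (795 and 1449 without it). Leaving out each library in turn gave 1 to 2 higher and 4 lower every time. Of all genes, 3.41% to 5.53% were then higher and 7.30% to 9.46% lower. Same-numbered libraries did not deviate together (correlations from -0.053 to 0.049), which cannot show whether they were paired in the design. With the replicate block 2 were called higher and 2 lower, beside 2.33% and 6.13% of all genes. Kif5a then had a limma adjusted p of 0.0765 and Kif27 one of 0.0610. Of 848 values of single genes under other settings, 787 kept their direction and side of the threshold, 8 lost the call, 16 gained one and 37 changed sign, the last in 12 genes without a call. The causes were not tested. Depth could not be assessed from FPKM.

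Sign changes, as log2 changes, were these. With quantile normalization Dctn6 was at 0.061, Dynll1 at 0.047, Dynlt3 at 0.041, Kif5b at 0.083 and Kif26b at 0.033. With rescaling Dctn1 was at 0.037, Dctn6 at 0.043, Dync2li1 at 0.048, Dynll1 at 0.026, Dynlt3 at 0.023, Kif5b at 0.068, Kif21b at 0.0022 and Kif26b at 0.070. With array weights Dctn1 was at 0.020, Dync1li2 at -0.011 and Kif3b at -0.027. With the cortical signal Dynll2 was at -0.014, Kif24 at -0.075 and Kif26b at 0.073. Leaving out each library in turn, the values ran across 0, from -0.16 to 0.016 for Dctn1, -0.15 to 0.0073 for Dctn6, -0.045 to 0.073 for Dync1li2, -0.090 to 0.014 for Dync2li1, -0.0083 to 0.084 for Dynll2, -0.19 to 0.061 for Kif5b, -0.085 to 0.068 for Kif3b and -0.069 to 0.10 for Kif26b.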
